A study of Mus musculus with 29 samples.

Results

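Obese mice that were switched from high-fat diet to control chow with intermittent fasting (CC-IF) were compared in the hippocampus with mice kept on high-fat diet (HFD). The comparison set 3 CC-IF libraries against 4 HFD libraries, out of 15 hippocampal libraries and 29 libraries in all. Of 24346 genes in the table, 12762 had a mean of at least 1 FPKM (fragments scaled by transcript length and library size) over the 7 libraries and were not small nucleolar or microRNA genes, and these were tested. All mice were male C57BL/6J and had eaten high-fat diet for 10 weeks. They then spent 4 weeks on CC-IF, on control chow eaten freely (CC), on the high-fat diet with alternate-day fasting (HFD-IF), or on continued high-fat diet eaten freely (HFD). The change from HFD to CC-IF therefore combines a new diet with fasting, and the CC and HFD-IF libraries hold one of these each. Not given in the sources used here were the time of day at collection and whether CC-IF mice were eating or fasting when sampled. Samples within a group are described as biological replicates in the design text, and the spread behind each p-value is the one between them.

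The hippocampus is a brain region of memory and spatial navigation, built mainly of excitatory pyramidal and granule neurons with interneurons, astrocytes, oligodendrocytes and microglia around them. Fasting is known to shift body temperature, feeding rhythm and circulating glucocorticoids, and brain genes that answer to these signals include cold-inducible RNA-binding proteins, circadian clock genes and targets of the glucocorticoid receptor. The unfolded protein response raises chaperones of the endoplasmic reticulum when unfolded protein builds up there. Succinate, named in the title of the study, is made and used in the citric acid cycle and is also sensed by the receptor Sucnr1.

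The libraries held 17202 to 18012 genes above 0, at depths estimated from the low values as 14.7 to 30.8 M (mega) fragments in CC-IF and 12.7 to 14.9 M in HFD. Summed FPKM of 23 markers of hippocampal excitatory neurons was 652 to 693 in CC-IF and 617 to 713 in HFD, so the labelled tissue showed its neurons in every library. Markers of the choroid plexus, the tissue that makes cerebrospinal fluid, set some libraries apart: their summed FPKM was 1133 in CC-IF library 2 but at most 56.9 in the other CC-IF libraries. It lay between 1482 and 2045 in HFD libraries 0, 2 and 3 with 78.8 in HFD library 1. Of these 14 markers, Aqp1 was listed at 0 in CC-IF library 0. Rn45s, a ribosomal RNA precursor, had 19437 and 18860 FPKM in CC-IF libraries 0 and 2 and was listed at 0 in library 1. It had 25521 and 29309 FPKM in HFD libraries 0 and 2 and was listed at 0 in libraries 1 and 3. Libraries are numbered as in the column headings.

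**Figure D1:**
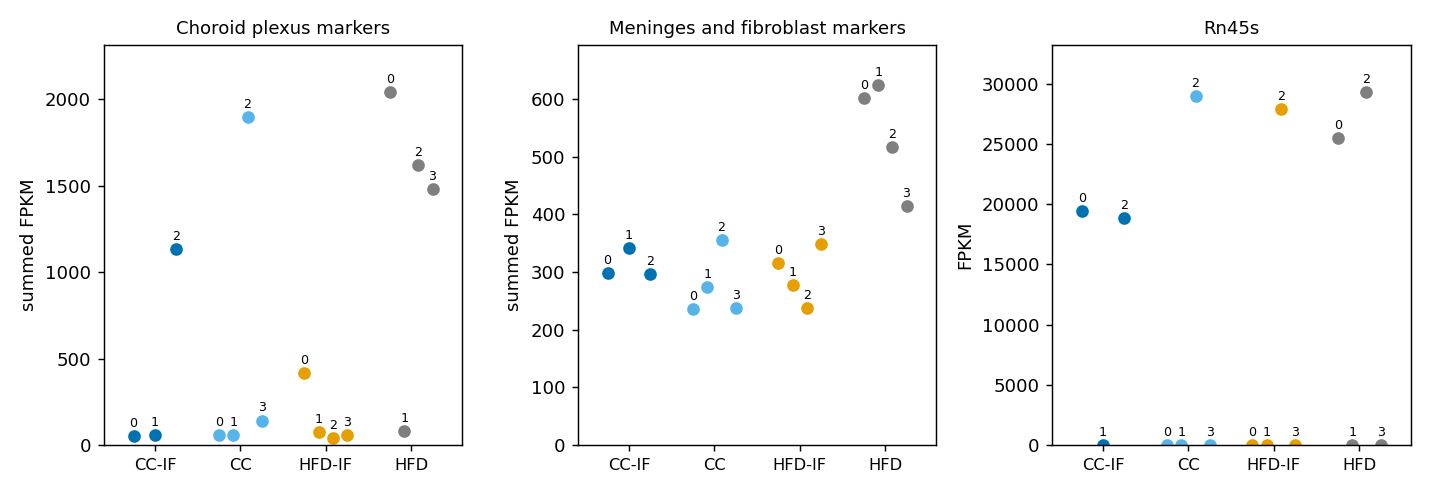
Summed FPKM of choroid plexus markers (left), summed FPKM of meninges and fibroblast markers (middle) and FPKM of Rn45s (right) in each hippocampal library, with the library number above each point. Choroid plexus markers and Rn45s were high in some libraries of both CC-IF and HFD, whereas the meningeal sum was lower in all 3 CC-IF libraries (297 to 341) than in all 4 HFD libraries (415 to 624).

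Few genes passed the test. Against HFD, the cold-inducible RNA-binding protein gene Cirbp and the lipid droplet gene Plin4 rose in CC-IF hippocampus, and the G protein subunit gene Gng5 fell. The antigen presentation gene H2-Aa also passed as lower, at a level that reached the filter only through the HFD libraries. Each direction therefore held 2 genes past an adjusted p of 0.05, which is 0.0157% of the genes tested. At an unadjusted p under 0.05, 643 genes were higher in CC-IF (5.04%) and 453 were lower (3.55%). In 766 genes every CC-IF library lay above every HFD library (6%), and in 405 genes every CC-IF library lay below (3.17%). Of the genes at an unadjusted p under 0.05, 58.7% were higher, and the share was 44.2% with median-ratio scaling and 94.9% of 39 such genes with libraries scaled to equal sums. The median log2 change over all genes was 0.02, and 1.22 with equal sums. With equal sums, 0 meningeal, chaperone or interferon genes and 2 glucocorticoid-induced genes stayed under that p, while the medians of these lists kept their sign relative to the median gene. The 4 calls did not withstand the loss of a library: without any one of CC-IF libraries 0, 1 and 2 or HFD libraries 0, 1 and 2 no gene passed in limma, with 659 to 1086 genes at an unadjusted p under 0.05, and without HFD library 3 there were 11.

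**Figure D2:**
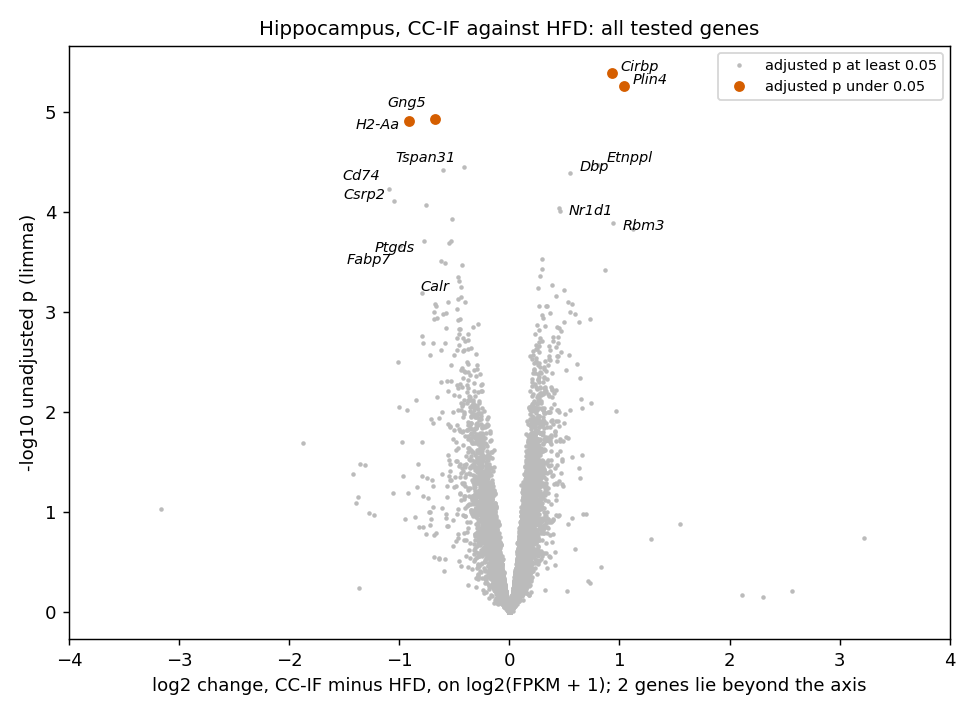
Each point is 1 of the 12762 genes tested, with its log2 change of CC-IF minus HFD on the log2(FPKM + 1) scale along the horizontal axis and the negative log10 of its unadjusted p upwards. Orange points mark the 4 genes past an adjusted p of 0.05: Cirbp and Plin4 on the right, Gng5 and H2-Aa on the left.

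The genes of both cold-inducible RNA-binding proteins were much higher in CC-IF hippocampus. Cirbp, which binds RNA and is induced by mild cooling, had 55.7, 56.3 and 47.6 FPKM in CC-IF and 27.8, 24.1, 25.1 and 33.3 FPKM in HFD. All CC-IF libraries lay above all HFD libraries, and Cirbp rose by 0.93 ± 0.14 on the log2 scale (SE, limma adjusted p = 0.0347). Its close relative Rbm3, known for protecting synapses in cooled mouse brain, had 71.8, 72.1 and 68.7 FPKM in CC-IF and 37.7, 30.7, 33.5 and 45.2 FPKM in HFD. The groups did not overlap here either, with a difference of 0.94 ± 0.19 (SE) that missed the threshold in the model of all 4 regimens (limma adjusted p = 0.109). In a fit of the 7 CC-IF and HFD libraries alone, Rbm3 and Cirbp were the 2 genes that passed. Among libraries without Rn45s, Cirbp had 56.3 FPKM in CC-IF library 1, against 24.1 and 33.3 FPKM in HFD libraries 1 and 3. These libraries are part of the same 7, whose groups did not overlap, so their order adds no separate support.

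The other 12 genes of the list of cytosolic chaperones and cold-inducible proteins were heat shock genes, and most sat slightly lower in CC-IF. Over the 14 genes tested, the median was -0.07. At an unadjusted p under 0.05, 2 were higher (Cirbp and Rbm3) and 2 lower, against 5.04% and 3.55% of all genes. The lower ones were Hspa8, the constitutive cytosolic chaperone, and Hsph1, its exchange factor. Hspa8 had 415, 448 and 455 FPKM in CC-IF and 477, 611, 520 and 561 FPKM in HFD, which is -0.30 ± 0.09 on the log2 scale (SE, limma adjusted p = 0.334). The groups did not overlap. Both genes are named here after their values were seen.

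The promoter of Cirbp is shown because Cirbp had the smallest p of all genes and a short element is known to bear on its induction by cold. The 250 bases before 1 of its 2 starts in the RefSeq table (GRCm38.p6, chr10:80167589-80167838, plus strand) hold the mild cold response element TCCCCGCC, searched on both strands and marked by capitals. The start shown is one whose window holds the element, so its presence there is no separate result. That window lies within the span of the gene given below. The element stands in 5 of the 10 promoters of the list in that table (Cirbp, Hspa1a, Hspa1b, Dnaja1 and Bag3) and in 5.37% of the promoters of 27025 genes. Of those 5 genes, Cirbp alone had an unadjusted p under 0.05.
Cirbp: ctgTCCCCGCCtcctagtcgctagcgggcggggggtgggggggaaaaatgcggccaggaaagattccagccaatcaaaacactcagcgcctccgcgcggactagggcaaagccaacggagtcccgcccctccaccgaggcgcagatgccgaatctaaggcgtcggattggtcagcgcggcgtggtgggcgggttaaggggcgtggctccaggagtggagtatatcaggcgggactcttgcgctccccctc

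Plin4, a gene that glucocorticoids induce, rose in CC-IF, and others of that kind had higher levels without passing the adjusted threshold. Plin4, which coats lipid droplets and is raised by glucocorticoids in mouse brain, had 4.08, 4.21 and 5.1 FPKM in CC-IF and 1.43, 1.97, 1.24 and 2.05 FPKM in HFD. The lowest CC-IF library stood well above the highest HFD library, and Plin4 rose by 1.04 ± 0.16 on the log2 scale (SE, limma adjusted p = 0.0347). Of 17 glucocorticoid-induced genes and receptors tested, 9 were higher and 0 lower at an unadjusted p under 0.05, and 14 had a positive log2 change, where 5.04% of all genes were higher at that p, 3.55% lower and 57.4% positive. Plin4 alone passed the adjusted threshold. Their median change was 0.31, against 0.02 over all genes. Without CC-IF library 1 the 9 became 4, without CC-IF library 2 they became 5, without HFD library 0 they became 5, and without HFD library 2 they became 4. Without the libraries with Rn45s above 0, which leaves 1 CC-IF library, there were 2 and the median was 0.31. Without the libraries with high choroid plexus sums, which leaves 1 HFD library, there was 1 and the median was 0.14.

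Several members of this list showed separate groups. The metallothionein gene Mt1, which binds zinc and copper, had 308, 310 and 360 FPKM in CC-IF and 254, 245, 246 and 183 FPKM in HFD. Every CC-IF library was higher, which was part of the rule that named Mt1, with a difference of 0.49 ± 0.13 (SE, limma adjusted p = 0.256). Tsc22d3, an anti-inflammatory target of the glucocorticoid receptor, averaged 24.7 ± 1.6 FPKM in CC-IF and 18.4 ± 3.0 FPKM in HFD (SD, n = 3 and 4). Hif3a, a relative of hypoxia-inducible factors, averaged 2.32 ± 0.15 FPKM in CC-IF and 1.16 ± 0.59 FPKM in HFD (SD, n = 3 and 4). The receptor genes themselves, Nr3c1 for glucocorticoids and Nr3c2 for mineralocorticoids, had log2 changes of -0.07 and -0.09. Tsc22d3 and Hif3a were chosen after their values were seen.

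**Figure D3:**
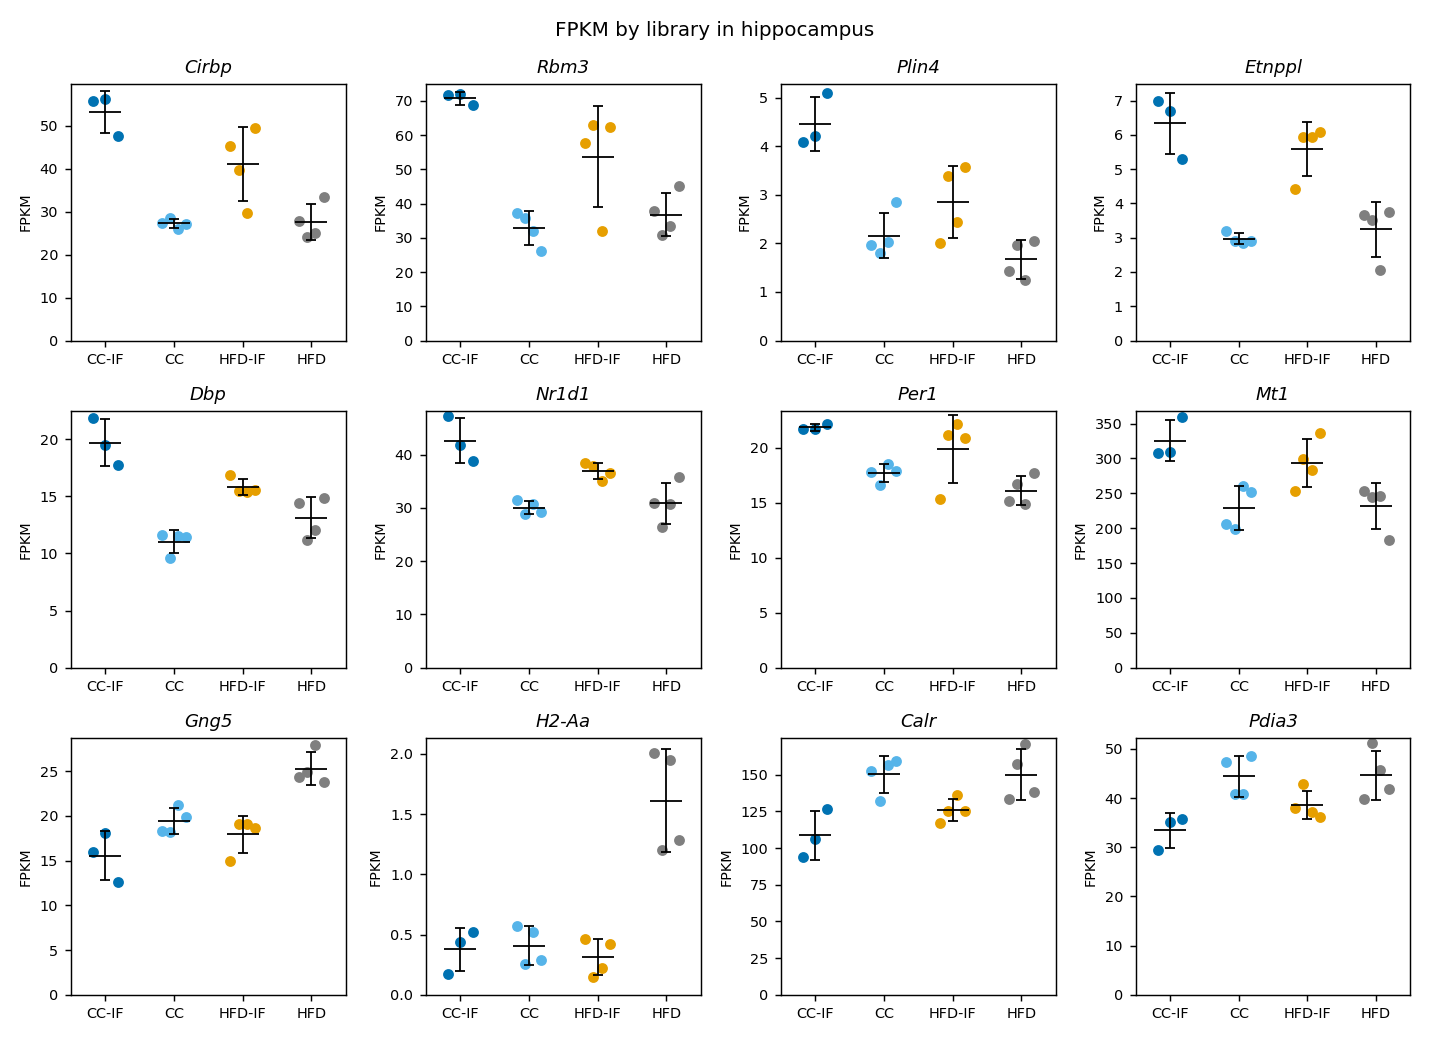
FPKM of 12 genes in each hippocampal library (points) with the mean and SD of each regimen (bars), for CC-IF, CC, HFD-IF and HFD from left to right. In the upper 2 rows the CC-IF libraries all lie above the HFD libraries, in the lowest row they all lie below, and for H2-Aa the CC and HFD-IF libraries also lie below HFD.

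Some clock genes had higher levels in CC-IF hippocampus, and none passed the adjusted threshold. Clock genes form a feedback loop in which Clock and Arntl drive transcription and the Per, Cry and Nr1d proteins repress it, and Dbp is an output of that loop. Dbp had 21.9, 19.5 and 17.8 FPKM in CC-IF and 14.4, 11.2, 12.1 and 14.9 FPKM in HFD. The groups did not overlap, with a difference of 0.55 ± 0.10 (SE, limma adjusted p = 0.0648). Nr1d1, which encodes the repressor of Arntl, had 47.2, 41.9 and 38.8 FPKM in CC-IF and 30.9, 26.3, 30.7 and 35.8 FPKM in HFD. Again the lowest CC-IF library exceeded the highest HFD library, by a narrower margin, with a difference of 0.45 ± 0.09 (SE, limma adjusted p = 0.0947). Per1, a repressor of the loop that glucocorticoids also induce, was nearly uniform in CC-IF at 21.7, 21.7 and 22.2 FPKM. In HFD it had 15.1, 16.7, 14.9 and 17.7 FPKM, below every CC-IF library (0.42 ± 0.10, SE, limma adjusted p = 0.241).

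Over the 18 clock genes tested, 6 were higher and 1 lower at an unadjusted p under 0.05, against 5.04% and 3.55% of all genes, and the median change was 0.20. The 6 were Dbp, Nr1d1, Per1, the repressor genes Cry2 and Bhlhe40, and Ciart, whose product represses Clock and Arntl. Ciart had 8.34, 5.65 and 6.01 FPKM in CC-IF and 3.72, 2.94, 2.57 and 5.52 FPKM in HFD, so that CC-IF library 1 and HFD library 3 nearly met. The lower one was Rorb, also a marker of cerebral cortex, with 4.75 ± 0.88 FPKM in CC-IF and 6.02 ± 0.52 FPKM in HFD (SD, n = 3 and 4). The activators showed no such pattern, with log2 changes of -0.15 for Arntl and 0.02 for Clock. Ciart, Cry2 and Bhlhe40 were named after their values were seen.

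Per1 is shown as 1 of 5 clock genes whose promoter carries the E-box, CACGTG, to which Clock and Arntl are known to bind. Of its 2 starts, the one shown is a start whose window holds the E-box. The capitals in the 250 bases before that start (RefSeq, GRCm38.p6, chr11:69098699-69098948, plus strand) mark it. An E-box stood in the same window of 5 of 16 clock genes in the table (Per1, Cry1, Tef, Ciart and Bhlhe41) and in 6.86% of all genes' promoters. Dbp and Nr1d1 had none in that window.
Per1: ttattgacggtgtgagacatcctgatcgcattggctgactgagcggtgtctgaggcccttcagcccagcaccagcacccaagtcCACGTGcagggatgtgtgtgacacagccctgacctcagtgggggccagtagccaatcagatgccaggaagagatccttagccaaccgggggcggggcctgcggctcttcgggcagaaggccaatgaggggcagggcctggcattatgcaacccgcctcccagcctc

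Chaperones of the endoplasmic reticulum were lower in CC-IF. All 17 unfolded protein response genes tested had a negative log2 change, 9 of them at an unadjusted p under 0.05 (3.55% of all genes), with a median of -0.30 against 0.02 over all genes. None passed the adjusted threshold. Calr, a calcium-binding chaperone of glycoproteins, had 93.7, 106 and 127 FPKM in CC-IF and 133, 157, 171 and 138 FPKM in HFD. The highest CC-IF library came close to the lowest HFD library without reaching it (-0.46 ± 0.11, SE, limma adjusted p = 0.201). Pdia3, a disulfide isomerase that works with Calr, had 29.4, 35.2 and 35.8 FPKM in CC-IF and 39.8, 51.1, 45.7 and 41.8 FPKM in HFD. These groups were separate too (-0.40 ± 0.10, SE, limma adjusted p = 0.241).

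Hspa5, the master chaperone of the endoplasmic reticulum, varied more, with 37.3, 51.6 and 71.5 FPKM in CC-IF and 61.5, 83.8, 91.7 and 69 FPKM in HFD. CC-IF library 2 lay within the HFD range, and that library was the highest of its group for Calr, Hspa5, Hsp90b1 and Pdia6 alike. Hsp90b1, a chaperone of secreted and membrane proteins, had 51.1, 63.2 and 67.1 FPKM in CC-IF and 65.6, 96.7, 88.7 and 82.3 FPKM in HFD. Pdia6, another disulfide isomerase, averaged 20.9 ± 3.9 FPKM in CC-IF and 30.8 ± 6.4 FPKM in HFD (SD, n = 3 and 4). The transcription factor genes of the response were closer together, with log2 changes of -0.18 for Xbp1, -0.12 for Atf4 and -0.03 for Ddit3. Without CC-IF library 0 the 9 genes became 4 and the median -0.19. Hspa5, Hsp90b1 and Pdia6 were chosen after their values were seen.

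Promoters of Calr, Hspa5 and Hsp90b1 are shown because they share the endoplasmic reticulum stress element, CCAAT followed by 9 bases of any kind and CCACG, through which the response is known to act. It was searched on both strands in the 250 bases before each start and was found in 6 of 17 genes of the list in the RefSeq table (Hspa5, Hsp90b1, Calr, Pdia6, Creld2 and Dnajc3), against 0.13% of all genes. The first 5 of these had an unadjusted p under 0.05, and Dnajc3 had a log2 change of -0.09. Capitals mark the element; in Calr and at the second site of Hsp90b1 it reads on the opposite strand. The windows on GRCm38.p6 are chr8:84846932-84847181, minus strand for Calr, chr2:34771840-34772089, plus strand for Hspa5 and chr10:86705445-86705694, minus strand for Hsp90b1.
Calr: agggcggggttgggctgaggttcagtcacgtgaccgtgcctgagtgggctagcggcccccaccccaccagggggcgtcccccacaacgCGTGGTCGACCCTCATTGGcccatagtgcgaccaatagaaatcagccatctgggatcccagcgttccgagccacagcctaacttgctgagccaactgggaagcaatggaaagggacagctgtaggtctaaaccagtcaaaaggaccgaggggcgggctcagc
Hspa5: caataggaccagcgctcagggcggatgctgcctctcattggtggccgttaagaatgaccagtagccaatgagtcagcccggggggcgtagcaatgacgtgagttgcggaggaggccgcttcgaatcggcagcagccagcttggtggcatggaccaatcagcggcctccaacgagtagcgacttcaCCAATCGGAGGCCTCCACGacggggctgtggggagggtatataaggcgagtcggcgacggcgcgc
Hsp90b1: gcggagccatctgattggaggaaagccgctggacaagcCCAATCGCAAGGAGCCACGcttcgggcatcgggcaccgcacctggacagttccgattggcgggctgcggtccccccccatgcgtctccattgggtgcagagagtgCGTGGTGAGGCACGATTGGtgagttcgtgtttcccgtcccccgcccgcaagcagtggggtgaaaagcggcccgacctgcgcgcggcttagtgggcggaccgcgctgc

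Genes of MHC class II, which present antigen on macrophages, dendritic cells and B cells, were low in CC-IF. H2-Aa, the alpha chain, had 0.175, 0.439 and 0.519 FPKM in CC-IF and 2.00, 1.20, 1.95 and 1.28 FPKM in HFD. Every HFD library exceeded 1 FPKM and no CC-IF library did, and the log2 change was -0.92 ± 0.15 (SE, limma adjusted p = 0.0394). H2-Aa reached the mean of 1 FPKM for testing only through the HFD libraries, with a mean of 1.1 FPKM over the 7, so that at its CC-IF level in both groups it would not have been tested. It had an adjusted p of 0.0827 in limma with no filter on low values, and was not tested when genes were kept by their mean over all 15 libraries. Cd74, the invariant chain that accompanies class II molecules, had 0.767, 0.715 and 1.37 FPKM in CC-IF and 3.23, 2.29, 3.14 and 3.94 FPKM in HFD. The groups were well apart (-1.09 ± 0.20, SE, limma adjusted p = 0.0823). Its CC-IF mean was also under 1 FPKM, so at that level in both groups Cd74 would not have been tested either. It was still tested when genes were kept by their mean over all 15 libraries (limma adjusted p = 0.0913). H2-Ab1, the beta chain, averaged 0.434 ± 0.29 FPKM in CC-IF and 1.53 ± 0.68 FPKM in HFD (SD, n = 3 and 4) and was named after its values were seen.

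These levels are low, so a few fragments set them. Over the 10 interferon and antigen presentation genes tested, 0 were higher and 4 lower at an unadjusted p under 0.05. Over all genes these shares were 5.04% and 3.55%. The 4 included H2-Aa, Cd74 and H2-Ab1, and the median of the list was -0.20. H2-Ab1 and Cd74, like H2-Aa, reached 1 FPKM only through the HFD libraries. With genes kept over all 15 libraries H2-Aa and H2-Ab1 drop out, leaving 8 genes with 2 lower and a median of -0.14. Class I genes differed less, with log2 changes of 0.04 for H2-D1, -0.09 for H2-K1 and -0.10 for B2m. In bulk tissue, fewer cells of a type and less RNA per cell cannot be told apart. Summed FPKM of 17 markers of microglia and macrophages was 144 to 157 in CC-IF and 152 to 189 in HFD. Of 14 tested members, 2 were lower at an unadjusted p under 0.05, against 3.55% of all genes. They were the lysosomal gene Cd68 and the microglial gene Tmem119. Their part in the class II result was not tested.

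H2-Aa is shown because it was the class II gene past the threshold and its promoter carries elements known to govern that class. The 250 bases before its start (RefSeq, GRCm38.p6, chr17:34287824-34288073, minus strand) hold an X2 box, TGACGTCA, and a Y box, CTGATTGG, both in capitals. Searched on both strands, the X2 box stood in 1 of 11 genes of the list in the table and in 1.77% of all genes. The Y box stood in 3 of 11 (H2-Aa, H2-D1 and H2-Eb1) and in 4.43% of all genes.
H2-Aa: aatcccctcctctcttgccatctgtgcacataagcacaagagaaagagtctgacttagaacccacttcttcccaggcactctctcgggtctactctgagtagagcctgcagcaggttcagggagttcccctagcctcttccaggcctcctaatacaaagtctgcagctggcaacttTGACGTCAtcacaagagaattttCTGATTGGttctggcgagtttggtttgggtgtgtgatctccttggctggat

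Gng5, a gamma subunit of heterotrimeric G proteins, had 15.9, 18.1 and 12.6 FPKM in CC-IF and 24.4, 24.9, 27.9 and 23.8 FPKM in HFD. The highest CC-IF library stood well under the lowest HFD library, and Gng5 fell by 0.68 on the log2 scale (SE 0.11, limma adjusted p = 0.0394). On GRCm38 it lies on chromosome 3 from 146499807 to 146505572. Cirbp lies on chromosome 10 from 80165985 to 80172786, Plin4 on chromosome 17 from 56100591 to 56109803, and H2-Aa on chromosome 17 from 34282744 to 34287823.

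Genes of the meninges, the connective tissue sheets around the brain, were lower in CC-IF. Of 14 meningeal and fibroblast genes tested, 0 were higher and 12 lower at an unadjusted p under 0.05, against 5.04% and 3.55% of all genes, with a median of -0.59. Ptgds, a prostaglandin synthase abundant in meninges and also made by oligodendrocytes, had 258, 295 and 232 FPKM in CC-IF and 499, 558, 436 and 328 FPKM in HFD. No library overlapped (-0.78 ± 0.16, SE, limma adjusted p = 0.136). Col1a2, a chain of type I collagen, was nearly constant in CC-IF at 1.54, 1.53 and 1.57 FPKM. In HFD it had 3.21, 2.62, 2.72 and 2.22 FPKM, all higher (-0.53 ± 0.11, SE, limma adjusted p = 0.136). Dcn, a small matrix proteoglycan, averaged 6.12 ± 0.55 FPKM in CC-IF and 11.4 ± 4.0 FPKM in HFD (SD, n = 3 and 4). None of the 16 markers was listed at 0 in these libraries. Summed without Ptgds, they came to 39.9 to 65.1 FPKM in CC-IF and 66.2 to 103 FPKM in HFD. The 12 became 8 without CC-IF library 0 or HFD library 0 and 9 without HFD library 3. They became 10 without CC-IF library 1 and 11 without CC-IF library 2 or HFD library 1 or 2. The median ran from -0.63 to -0.51 in these fits. Without the libraries with Rn45s above 0, which leaves 1 CC-IF library, the median was -0.53.

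Some other matrix, membrane and calcium-binding genes were also lower in CC-IF. Serpinh1, the collagen chaperone, averaged 4.03 ± 0.72 FPKM in CC-IF and 7.48 ± 1.15 FPKM in HFD (SD, n = 3 and 4), a difference of -0.75 ± 0.15 (SE, limma adjusted p = 0.0947). Prelp, a leucine-rich matrix proteoglycan, averaged 6.50 ± 1.92 FPKM in CC-IF and 10.9 ± 1.45 FPKM in HFD (SD, n = 3 and 4). Ifitm3, an interferon-induced membrane protein, averaged 6.80 ± 2.11 FPKM in CC-IF and 11.7 ± 2.71 FPKM in HFD, and S100a11, a calcium-binding protein, 4.89 ± 0.67 FPKM in CC-IF and 8.71 ± 2.78 FPKM in HFD (SD, n = 3 and 4). These 4 genes were named from those whose CC-IF libraries all lay below all HFD libraries, as in 3.17% of all genes. The meningeal marker sum moved with them, and its part in these values was not tested.

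Choroid plexus genes ran lower on average and overlapped widely. All 13 tested had a negative log2 change, with a median of -1.01. Of these, 3 had an unadjusted p under 0.05 (Kl, Sostdc1 and Calml4), where 3.55% of all genes were lower. Ttr, the thyroid hormone carrier that defines this tissue, had 16.0, 14.4 and 957 FPKM in CC-IF and 1744, 33.5, 1372 and 1246 FPKM in HFD. The high values were those of CC-IF library 2 and HFD libraries 0, 2 and 3. Leaving out CC-IF library 2 raised the 3 to 12 and leaving out HFD library 1 raised them to 13, while leaving out any of the other 5 libraries left 1. Without all libraries above 1000 FPKM in the summed markers, which leaves HFD library 1 as the only HFD library, the median was -0.18. In that same comparison the median of the meningeal genes was -0.59 and that of the unfolded protein response genes -0.48. These medians all rest on that 1 HFD library.

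**Figure D4:**
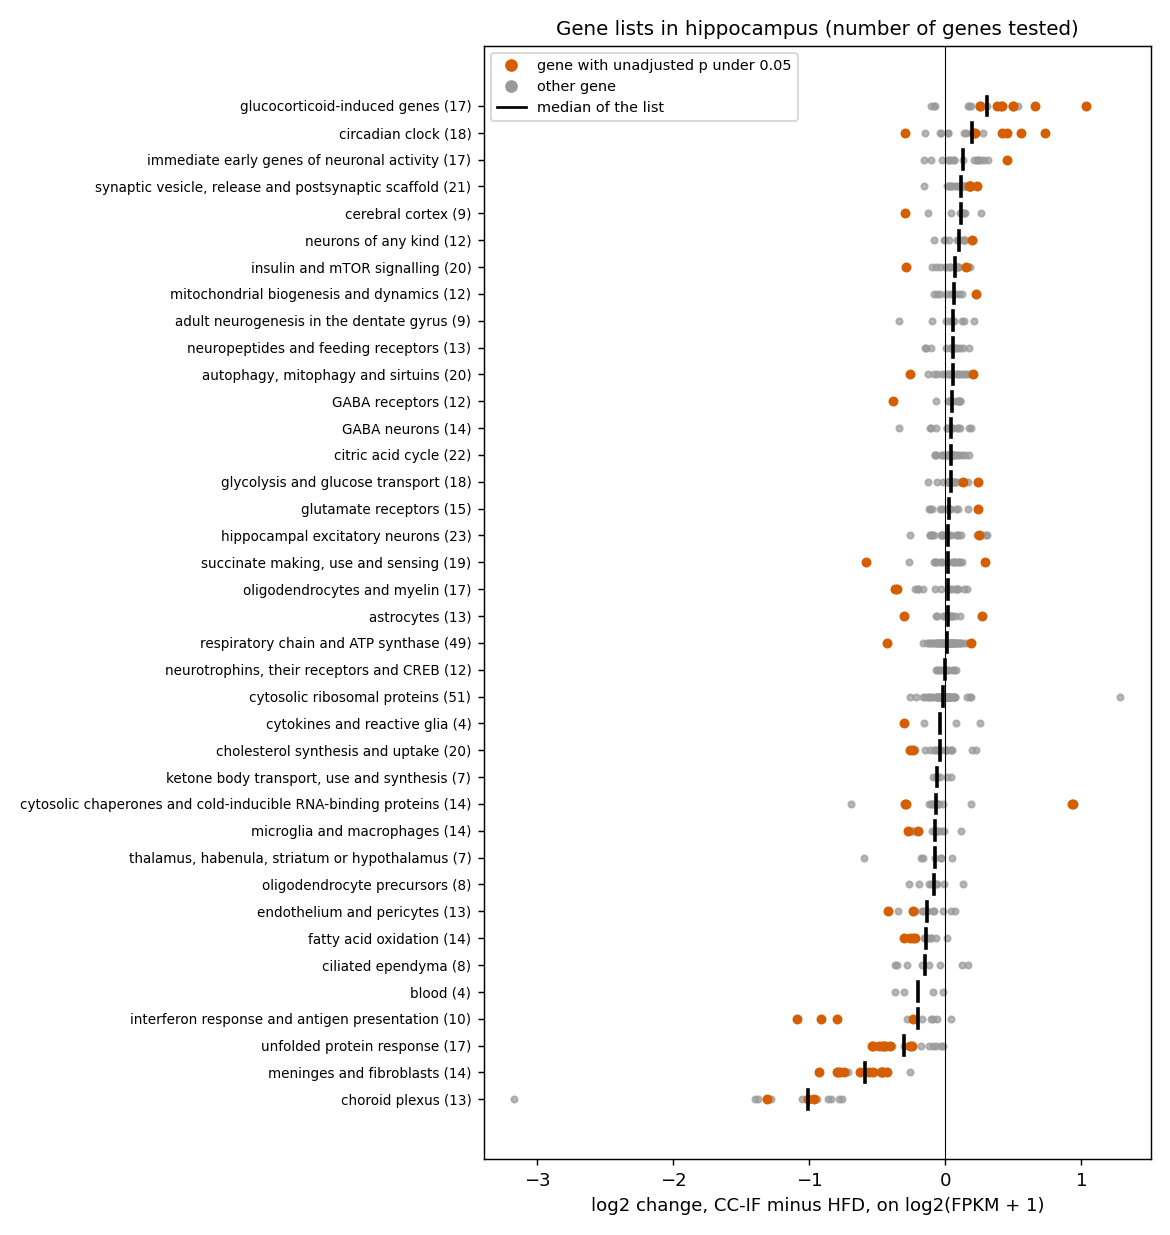
Log2 change of CC-IF minus HFD (horizontal axis) for the genes of each list, 1 list per row with the number of its genes tested, ordered by median (black line). Orange points are genes with an unadjusted p under 0.05. Glucocorticoid-induced and clock genes lie highest, with medians of 0.31 and 0.20, and meningeal and choroid plexus genes lowest, with medians of -0.59 and -1.01.

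Among glial genes, Etnppl and Fabp7 stood out in opposite directions. Etnppl, an astrocyte enzyme that breaks down phosphoethanolamine, had 6.99, 6.71 and 5.31 FPKM in CC-IF and 3.65, 3.5, 2.06 and 3.75 FPKM in HFD. No library overlapped (0.80 ± 0.14, SE, limma adjusted p = 0.0648). Fabp7, the fatty acid binding protein of radial glia and astrocytes, had 5.23, 7.87 and 8.46 FPKM in CC-IF and 13.9, 14.8, 16.7 and 15 FPKM in HFD. Here every CC-IF library was lower, which was part of the rule that named Fabp7 (-0.99 ± 0.21, SE, limma adjusted p = 0.14). General astrocyte markers did not move one way, with a median of 0.02 over 13 tested. At an unadjusted p under 0.05, 1 was higher (the growth factor receptor Fgfr3, 0.27) and 1 lower (the water channel Aqp4, -0.31). Over all genes 5.04% were higher and 3.55% lower. Vim, an intermediate filament of reactive glia and vessels, averaged 11 ± 1.1 FPKM in CC-IF and 13.8 ± 0.9 FPKM in HFD (SD, n = 3 and 4).

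Oligodendrocyte genes had a median of 0.02 over 17 tested. While 3.55% of all genes were lower at an unadjusted p under 0.05, 2 of these 17 were lower. These were Trf, the iron carrier transferrin (-0.35), and Ugt8a, which makes myelin galactolipids (-0.37). Both the count and the direction turned with the libraries. There were 4 lower and a median of -0.18 without CC-IF library 1, 1 lower without HFD library 0, and 0 lower without CC-IF library 0 or 2 or HFD library 2 or 3. Without the libraries with Rn45s above 0, 4 were higher, the median was 0.38 and Trf had 0.054, and without those with high choroid plexus sums the median was 0.23 and Trf had 0.0041. Vessel genes had a median of -0.14 over 13, with 2 lower at that p, against 3.55% of all genes. The 2 were Acta2, smooth muscle actin (-0.42), and Pecam1, an endothelial adhesion molecule (-0.24). Among genes on no list, 3 of the smallest p-values belonged to genes lower in every CC-IF library. Tspan31, a tetraspanin, averaged 13.2 ± 0.4 FPKM in CC-IF and 17.9 ± 1.3 FPKM in HFD (limma adjusted p = 0.0648). Gstt1, a glutathione transferase, averaged 1.94 ± 0.29 FPKM in CC-IF and 3.48 ± 0.43 FPKM in HFD (limma adjusted p = 0.0648). Csrp2, a LIM protein, averaged 1.41 ± 0.13 FPKM in CC-IF and 4.05 ± 1.05 FPKM in HFD (limma adjusted p = 0.0947; SD, n = 3 and 4 throughout).

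On the higher side, 4 further genes were named for separate groups and some of the highest log2 changes. Over all genes, 6% had every CC-IF library above every HFD library. Cep131, a centrosomal protein, averaged 7.22 ± 0.49 FPKM in CC-IF and 4.96 ± 0.35 FPKM in HFD (SD, n = 3 and 4; 0.46, limma adjusted p = 0.0947). Chchd7 and Smim4, both small mitochondrial proteins, differed by 0.47 and 0.57. Atp6v0c-ps2, annotated as a pseudogene, differed by 0.65, but its reads may be shared with its parent gene and the value is uncertain.

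Synaptic genes leaned slightly upwards. Of 21 genes of vesicles, release and the postsynaptic scaffold, 20 had a positive log2 change, against 57.4% of all genes, and 5 were higher at an unadjusted p under 0.05, against 5.04% of all genes, with a median of 0.12. This lean was not particular to synaptic genes or to CC-IF. The 12 general neuron markers had a median of 0.10, with 9 positive. Against HFD, the synaptic median was 0.09 in CC and 0.11 in HFD-IF, with 2 and 5 genes higher at that p. Syn1, which tethers vesicles, had 151, 131 and 146 FPKM in CC-IF and 120, 115, 126 and 123 FPKM in HFD. Its groups did not overlap, with a change of 0.23 (limma adjusted p = 0.493). The 5 became 1 without CC-IF library 0, 3 without CC-IF library 1, 2 without CC-IF library 2, 3 without HFD library 0, 2 without HFD library 1 and 3 without HFD library 2, 1 with median-ratio scaling, and 0 without the libraries with Rn45s.

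Neuronal identity genes differed little, with general neuron markers slightly higher. The summed FPKM of these 12 markers was 2842 to 2866 in CC-IF and 2512 to 2842 in HFD, where HFD library 1 reached the CC-IF range. Their median log2 change was 0.10, against 0.02 over all genes. The NMDA receptor subunit gene Grin1 averaged 130 ± 6 FPKM in CC-IF and 110 ± 5 FPKM in HFD (SD, n = 3 and 4; 0.24, limma adjusted p = 0.309) and was the 1 of 15 glutamate receptor genes at an unadjusted p under 0.05. The GABA receptor subunit gene Gabra2 averaged 11.9 ± 1.0 FPKM in CC-IF and 15.8 ± 1.5 FPKM in HFD (-0.38, limma adjusted p = 0.378). The neuronal factor genes Rbfox3 and Neurod2 had differences of 0.20 and 0.25. Each was named as the 1 gene at an unadjusted p under 0.05 in its list, that of general neurons and that of excitatory neurons. Of 12 neurotrophin, receptor and CREB genes, 0 differed in either direction at an unadjusted p under 0.05, and their median was -0.00. Of 17 immediate early genes of neuronal activity, 1 was higher (Egr2, 0.45), a share near the 5.04% of all genes, and 14 had a positive log2 change, with a median of 0.13. Without the libraries with high choroid plexus sums Egr2 had -0.082 and the median was -0.016.

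Succinate genes were close between the groups. The 4 subunits of succinate dehydrogenase, which oxidises succinate in mitochondria, had log2 changes of 0.09 for Sdha, 0.12 for Sdhb, 0.06 for Sdhd and -0.08 for Sdhc, the last being 0.01 relative to the median gene with libraries scaled to equal sums. Sdhb had 48.9, 51.4 and 48.8 FPKM in CC-IF and 45.1, 47.7, 45.1 and 44.7 FPKM in HFD, with every CC-IF library higher by a small margin (limma adjusted p = 0.748). Sucnr1 was listed at 0 in all 7 libraries. Of 19 succinate genes tested, 1 was higher and 1 lower at an unadjusted p under 0.05, close to the 5.04% and 3.55% of all genes. Slc13a3, a carrier of succinate and other dicarboxylates, had 1.63, 2.82 and 1.88 FPKM in CC-IF and 3.79, 3.59, 3.36 and 3.65 FPKM in HFD. The CC-IF libraries were all lower (-0.58 ± 0.13, SE, limma adjusted p = 0.179). Slc13a5, a citrate carrier, averaged 1.30 ± 0.17 FPKM in CC-IF and 0.882 ± 0.065 FPKM in HFD (SD, n = 3 and 4). Its log2 change was 0.29 (limma adjusted p = 0.439), and became -0.14 relative to the median gene when libraries were scaled to equal sums. Slc13a5 was the 1 gene counted as higher, and it reached the mean of 1 FPKM for testing only through the CC-IF libraries.

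Energy metabolism otherwise differed in few genes. Of 22 citric acid cycle genes, 0 had an unadjusted p under 0.05 in either direction, with a median of 0.04. Of 49 respiratory chain and ATP synthase genes, 1 was higher (Ndufv1, 0.19) and 1 lower (Atp5e, -0.43), with a median of 0.01. Of 14 fatty acid oxidation genes, 13 had a negative log2 change and 4 were lower at an unadjusted p under 0.05, against 3.55% of all genes, with a median of -0.14, where 57.4% of all genes had a positive change. Hadha, which carries out the later steps on long chains, had 8.22, 9.80 and 9.26 FPKM in CC-IF and 11.4, 11.1, 10.4 and 11.2 FPKM in HFD. Cpt2, which forms acyl-CoA inside mitochondria, averaged 1.19 ± 0.05 FPKM in CC-IF and 1.71 ± 0.34 FPKM in HFD (SD, n = 3 and 4). Both genes had separate groups (limma adjusted p = 0.39 and 0.442). The 4 became 2 without CC-IF library 0 or without HFD library 3, and 0 without the libraries with Rn45s or without those with high choroid plexus sums.

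Lists of glucose, insulin, sterol and stress genes held at most 2 genes in either direction at a low p, counts too small to rank against the shares of all genes. At an unadjusted p under 0.05, 2 of 18 glucose genes were higher and 0 lower, 1 and 1 of 20 insulin and mTOR genes, 0 and 2 of 20 sterol genes, 1 and 1 of 20 autophagy and sirtuin genes and 1 and 0 of 12 mitochondrial biogenesis genes, against 5.04% and 3.55% of all genes. The glucose transporter gene Slc2a3 averaged 24.1 ± 0.7 FPKM in CC-IF and 20.4 ± 1.9 FPKM in HFD, and the glycolytic gene Pfkm 67.9 ± 1.9 FPKM in CC-IF and 62.1 ± 2.7 FPKM in HFD (SD, n = 3 and 4). The kinase genes of insulin signalling went apart, Akt1 at 0.15 and Akt2 at -0.29, each with groups that did not overlap, as in 6% of all genes upwards and 3.17% downwards. The sterol synthesis genes Sqle and Idi1 differed by -0.26 and -0.24, within a list of 20 whose median was -0.04. Foxo3, a factor of stress resistance, differed by 0.20, the sirtuin gene Sirt5 by -0.26 and the coactivator gene Ppargc1b by 0.23. The 51 cytosolic ribosomal protein genes had 0 at an unadjusted p under 0.05 in either direction and a median of -0.01.

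Among the other regimens, CC holds the diet switch without fasting and HFD-IF holds fasting without the switch. Their comparisons with HFD share the HFD libraries with that of CC-IF, so their values are set side by side. Against HFD, CC had 0 genes past the threshold upwards (0%) and 2 downwards (0.0157%; H2-Aa and Ptgds) by limma, with 277 higher and 170 lower at an unadjusted p under 0.05. HFD-IF had 0 upwards (0%) and 1 downwards (0.00784%; H2-Aa), with 605 higher and 348 lower at an unadjusted p under 0.05. Cirbp averaged 53.2 ± 4.8 FPKM in CC-IF, 27.2 ± 1.1 in CC, 41.0 ± 8.6 in HFD-IF and 27.6 ± 4.1 in HFD (SD, n = 3, 4, 4 and 4). In HFD-IF, 1 library (29.6 FPKM) lay within the range of HFD and 3 lay above it. Rbm3 averaged 70.8 ± 1.9 FPKM in CC-IF, 32.8 ± 4.9 in CC, 53.7 ± 14.7 in HFD-IF and 36.8 ± 6.3 in HFD (SD).

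Unfolded protein response genes were also nearest to HFD in CC. The median of their log2 changes from HFD was -0.30 in CC-IF, 0.02 in CC and -0.16 in HFD-IF. Genes lower at an unadjusted p under 0.05 numbered 9, 0 and 3 in these regimens, where the shares over all genes were 3.55%, 1.33% and 2.73%. Clock genes had medians of 0.20 in CC-IF, -0.00 in CC and 0.15 in HFD-IF. Higher ones numbered 6, 2 and 4 of 18, where the shares over all genes were 5.04%, 2.17% and 4.74%.

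Class II and meningeal genes were arranged differently, with the highest means in HFD. H2-Aa averaged 0.378 ± 0.18 FPKM in CC-IF, 0.409 ± 0.16 in CC, 0.315 ± 0.15 in HFD-IF and 1.61 ± 0.43 in HFD (SD). Its log2 change from HFD was -0.88 in CC (limma adjusted p = 0.0493) and -0.98 in HFD-IF (limma adjusted p = 0.0265), in tests it entered only through its HFD level. With genes kept over all 15 libraries it was not tested, and the calls were Ptgds alone in CC and 0 genes in HFD-IF by limma, with 950 at an unadjusted p under 0.05. Ptgds fell in CC by 1.03 (limma adjusted p = 0.0442), and its change was -0.84 in HFD-IF (limma adjusted p = 0.0708). These calls rest on single libraries: Ptgds or H2-Aa or both were lost from the CC calls without any one library other than CC-IF library 0 and CC library 2. H2-Aa was lost from the HFD-IF call without CC-IF library 1, HFD library 0 or 2, or HFD-IF library 1, 2 or 3. Without CC library 2 there were 6 calls in CC and 5 in HFD-IF, without HFD-IF library 0 there were 5 in HFD-IF, and without HFD library 3 there were 7 in HFD-IF. The median of the meningeal genes was -0.59 in CC-IF, -0.54 in CC and -0.74 in HFD-IF. The summed meningeal markers were 297 to 341 FPKM in CC-IF, 236 to 356 in CC, 238 to 349 in HFD-IF and 415 to 624 in HFD. Without Ptgds, which makes up most of the sum, they were 39.9 to 65.1 FPKM in CC-IF, 38.8 to 96.8 in CC, 34.9 to 52.6 in HFD-IF and 66.2 to 103 in HFD, and CC library 2 lay above 3 of the 4 HFD libraries. Choroid plexus markers too had their highest mean sum in HFD, at 1306 FPKM against 413 in CC-IF, 538 in CC and 148 in HFD-IF, with wide overlap between libraries. Their medians were -1.01 in CC-IF, -0.91 in CC and -1.40 in HFD-IF. Of the 13 tested, 3, 2 and 13 were lower at an unadjusted p under 0.05. The part of this tissue in the other values was not tested.

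The difference between CC-IF and the regimens with one component was tested directly. CC-IF exceeded CC in 2 genes (0.0157%) and was below it in 0 (0%) by limma, with 336 higher (2.63%) and 470 lower (3.68%) at an unadjusted p under 0.05. These were Dbp, by 0.78 ± 0.10 (SE, limma adjusted p = 0.00796), and Cirbp, by 0.94 ± 0.14 (SE, limma adjusted p = 0.0232). Dbp averaged 19.7 ± 2.1 FPKM in CC-IF and 11 ± 1.0 FPKM in CC (SD, n = 3 and 4). Neither passed without CC-IF library 0 or CC-IF library 1, Dbp alone passed without CC-IF library 2 or any one CC library, and 7 genes passed without HFD library 3. CC-IF and HFD-IF differed in 0 genes in either direction (0%) by limma, with 134 higher (1.05%) and 233 lower (1.83%) at an unadjusted p under 0.05. Between these groups Cirbp differed by 0.39 ± 0.14 and Plin4 by 0.52 ± 0.16 (SE).

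The same change of regimen was then compared between tissues, over 9831 genes measured in both. In liver, 1643 genes rose (16.7%) and 1492 fell (15.2%) from HFD to CC-IF at an adjusted p under 0.05 in a model of both tissues. The change in hippocampus was above that in liver for 566 genes (5.76%) and below it for 558 (5.68%) in the test of the difference itself. The SEs given for hippocampus are those of the model of hippocampal libraries alone. The SEs for liver and the p of the difference come from the model of both tissues. The SEs of the tissues can therefore not be compared with each other, and those of hippocampus do not belong to that p. Calr had log2 changes of -0.46 ± 0.11 in hippocampus and -1.91 ± 0.15 in liver, and Pdia3 of -0.40 ± 0.10 in hippocampus and -1.30 ± 0.13 in liver (SE), so both had the same sign in each tissue with the liver change larger (limma adjusted p of the difference = 7.86e-05 and 0.00259). Sqle had -0.26 in hippocampus and -3.83 in liver (limma adjusted p of the difference = 3.38e-07). Mt1 had 0.49 in hippocampus and 2.81 in liver (limma adjusted p of the difference = 0.0016). Hadha had opposite signs, -0.26 in hippocampus and 0.52 in liver (limma adjusted p of the difference = 0.000275).

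Most of the genes that led in hippocampus did not pass that test. Cirbp had 0.93 ± 0.14 in hippocampus and 0.32 ± 0.19 in liver (SE, limma adjusted p of the difference = 0.158). Rbm3 had 0.94 ± 0.19 in hippocampus and 1.27 ± 0.18 in liver (SE, 0.445 for the difference), and Dbp 0.55 ± 0.10 in hippocampus and 2.36 ± 0.61 in liver (SE, 0.198 for the difference). Gng5 did pass, with -0.68 ± 0.11 in hippocampus and -0.14 ± 0.10 in liver (SE, limma adjusted p of the difference = 0.0213). Among the 51 named genes measured in both tissues, 13 passed.

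**Figure D5:**
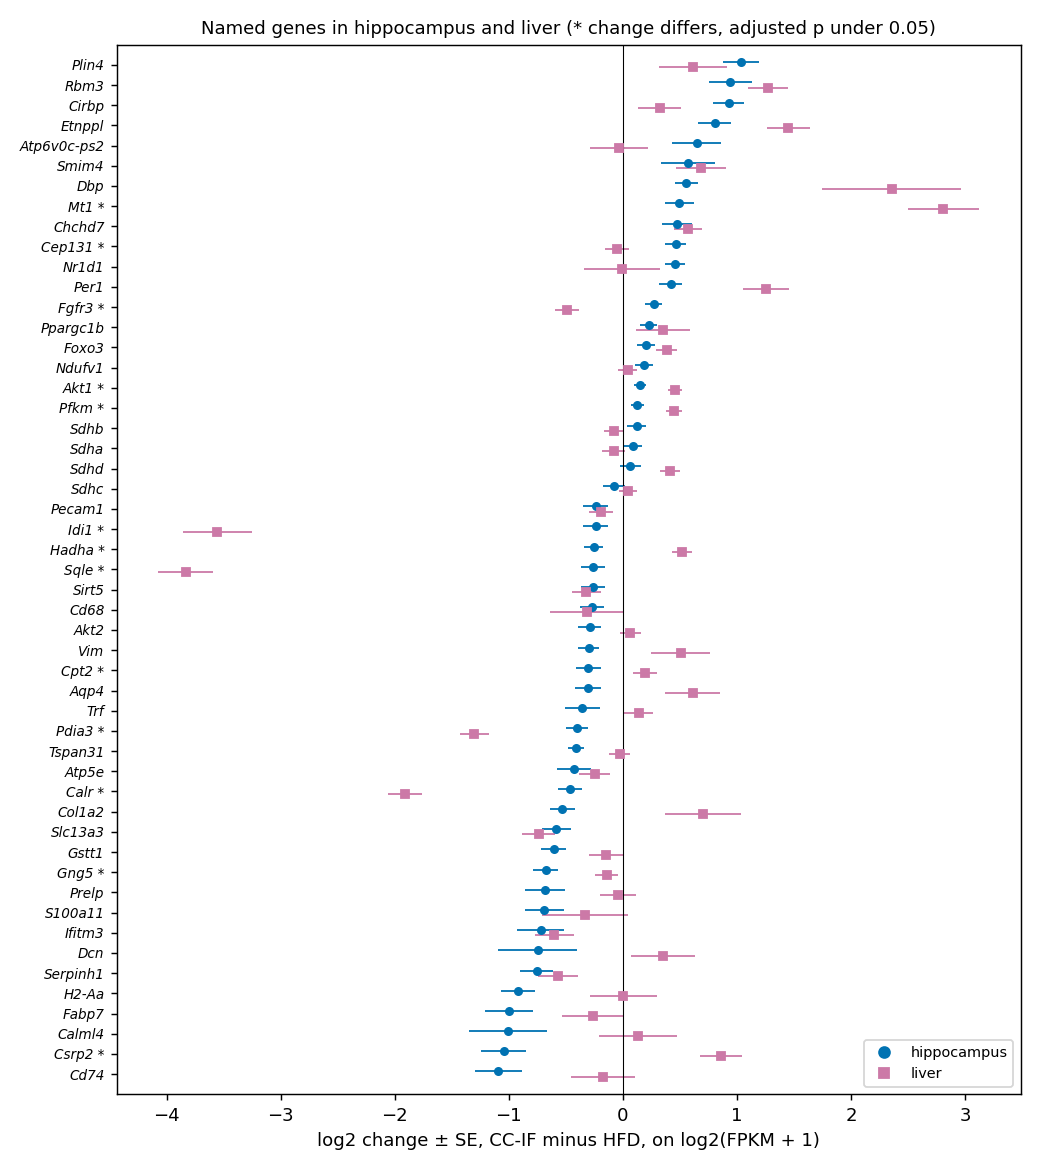
Log2 change of CC-IF minus HFD with its SE (horizontal axis) for the named genes measured in both tissues, in hippocampus (circles) and in liver (squares). SEs of hippocampus come from the model of hippocampal libraries alone and those of liver from the model of both tissues. An asterisk marks the 13 genes whose change differed between tissues at an adjusted p under 0.05, among them Sqle and Idi1 with liver changes near -3.83 and -3.56 and Calr with -1.91.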

How the data were processed

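Polyadenylated RNA of about 20 mg of tissue was sequenced as paired reads of 125 nt, per the labels' protocols. The authors deposited 1 table of FPKM. TopHat2 2.1.1, Bowtie2 2.3.5.1, Trimmomatic 0.39, FastQC 0.11.9 and the build GRCm38 are named per the submitters' processing notes. How FPKM were computed, and with which annotation, is not given in the sources used here. Columns were tied to groups by name, and 0 columns had no group. Of 21 pairs of libraries within a hippocampal group, at least 99.96% of values differed in each, with Pearson's r of 0.967 or more, so each library was counted once. Depth was estimated by reading low FPKM as whole fragments, with 58.7% to 70.7% of them within 0.2 of a whole fragment over the 7 libraries. Chance gives 40% at a depth fixed beforehand. Because depth was fitted to these same values, 40% is not the level that chance gives here.

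Values were taken as log2(FPKM + 1), a scale that understates changes of low genes. All 15 hippocampal libraries entered 1 limma 3.58.1 model (R 4.3.3; 11 residual degrees of freedom) with group as its term and an intensity trend. P-values are two-sided and adjusted by Benjamini and Hochberg over all 12762 genes at 0.05. A model over both tissues, libraries taken as independent, tested differences of the change. The fit was tested on simulated data. Tables and plots were made with matplotlib 3.10.9, numpy 2.4.6 and pandas 2.3.3 in Python 3.11.15. GENCODE M21 (GRCm38) gave coordinates for 12668 of the tested genes, by symbol.

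Genes were named by rule: those past the threshold, the 10 with the smallest p, the 8 highest and 8 lowest changes at a mean of at least 5 FPKM whose groups do not overlap, up to 2 members with the smallest unadjusted p under 0.05 of each of 38 lists, and Sdha to Sdhd, Sucnr1 and Rn45s. A few results that the rule calls for are left out here. Predicted genes and genes under 300 nt were left out of the first 3. The comparison, lists and members were chosen with earlier results of these data known. Other pseudocounts, filters, scalings, weights and subsets of libraries were tried.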

Additional observations from a re-analysis of the deposited data

Results flagged for a closer look

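In 6 genes and 1 marker sum, 1 HFD hippocampal library stood far from the other 3. The test divides the gap between that library and its nearest neighbour by the range of the 4 libraries, set against Dixon's critical value for 4 samples, and chance passes it in about 1 in 20 groups; 7 of 79 groups passed here. The immediate early gene Egr2 had a ratio of 0.841, with HFD library 1 high at 2.38 FPKM. The astrocyte gene Etnppl had 0.853, with HFD library 2 low at 2.06 FPKM. HFD library 3 was low for Foxo3 (0.985, at 16.3 FPKM) and for Mt1 (0.879, at 183 FPKM). HFD library 1 was high for Sdhb (0.860, at 47.7 FPKM) and low for Sostdc1, a choroid plexus gene (0.883, at 1.01 FPKM). It was also low for the summed markers of ciliated ependyma (0.853, at 14.3 FPKM).

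The change from HFD to CC-IF differed between hippocampus and liver at an adjusted p under 0.05 in 13 of the 51 named genes measured in both. Values below are the change in hippocampus minus that in liver, on the log2 scale. The sterol synthesis genes Sqle and Idi1 had 3.57 and 3.32, and the chaperone genes Calr and Pdia3 had 1.44 and 0.90. The growth factor receptor gene Fgfr3 had 0.76 and Cep131 had 0.52. On the negative side, Mt1 had -2.32, Csrp2 -1.91, Hadha -0.77, Gng5 -0.54, Cpt2 -0.49, Pfkm -0.32 and Akt1 -0.31.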

How the results depend on the processing

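No paired analysis was possible because the columns carry no replicate number of the labels: their own numbers start at 0, those of the labels at 1, and no source ties a column number to an animal, batch or day. Genes past the threshold numbered 4 for CC-IF minus HFD, 2 for CC minus HFD, 1 for HFD-IF minus HFD, 2 for CC-IF minus CC and 0 for CC-IF minus HFD-IF. In that order of comparisons, a pseudocount of 0.1 gave 0, 1, 0, 2 and 0, no filter on low values 1, 0, 2, 2 and 1, and a mean of at least 5 FPKM 2, 1, 0, 2 and 0. Median-ratio scaling gave 2, 0, 2, 4 and 0, and scaling to equal sums 3, 4, 2, 2 and 4, none of these 3 shared with the 4. No intensity trend gave 3, 3, 4, 2 and 0, and arrayWeights 16, 6, 0, 96 and 0. Leaving out libraries with Rn45s above 0 gave 0, 1, 0, 0 and 0, and leaving out genes under 300 nt 4, 2, 1, 3 and 0. Where 1 library of a group is left, it is assumed to vary like those of the other groups. Chosen after seeing the data, as were all alternatives for CC-IF minus CC and CC-IF minus HFD-IF and the loss of CC or HFD-IF libraries, genes kept over 15 libraries gave 3, 1, 0, 2 and 0, and leaving out libraries above 1000 FPKM of choroid plexus markers 0, 0, 0, 1 and 0. The 7 CC-IF and HFD libraries alone gave 2 for CC-IF minus HFD. Leaving out 1 library gave 0 to 11, 0 to 6, 0 to 7, 0 to 7 and 0 to 0, and for the difference between tissues 809 to 1170 against 1124 genes. The causes were not tested.

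Among genes at an unadjusted p under 0.05, 58.7% were higher in CC-IF. That share was 44.2% with median-ratio scaling, 94.9% with equal sums, 69.9% at a mean of at least 5 FPKM, 43.6% without high choroid plexus libraries and 46.7% without CC-IF library 1. Equal sums moved the median of all genes to 1.22, genes under 300 nt held 79.5% to 98.0% of the sum, and changes under it are given relative to that shift. Wherever tested, Cirbp kept its direction at 0.87 to 1.18 (adjusted p 0.00478 to 0.896), Plin4 at 0.79 to 1.38 (0.0226 to 0.993), Gng5 at -0.79 to -0.41 (0.0333 to 0.993) and H2-Aa at -1.89 to -0.64 (0.0333 to 0.993). The log2 change of Sdhc turned to 0.015 with equal sums and 0.087 without Rn45s libraries, and ran from -0.124 to 0.0053 when 1 library was left out. That of Slc13a5 turned to -0.14 with equal sums, that of Trf to 0.054 without Rn45s libraries and 0.0041 without high choroid plexus libraries, and that of Egr2 to -0.082 without high choroid plexus libraries. The other values of named genes kept their direction, 1143 of them on the same side of the threshold, and 681 of 720 list medians moved by less than the spread between replicates. Depth is known only by estimate, so no counting error is given for low genes such as H2-Aa.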

Other observations

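Several lists of other cell types and pathways of the hippocampus held few genes with a low p, at a median over all genes of 0.02. Over 23 markers of excitatory neurons the median log2 change of CC-IF minus HFD was 0.02, over 14 markers of GABA neurons 0.05 and over 9 genes of adult neurogenesis 0.06, with 1, 0 and 0 genes higher and 0, 0 and 0 lower at an unadjusted p under 0.05, against 5.04% and 3.55% of all genes. The 13 neuropeptide and feeding receptor genes had a median of 0.06 and the 7 ketone body genes one of -0.06, with 0 in either direction in both. Oligodendrocyte precursors (8 genes) had a median of -0.09, ciliated ependyma (8 genes) -0.15 and blood (4 genes) -0.20, again with 0 in either direction. Of 9 markers of cerebral cortex 1 was lower (Rorb) and the median was 0.12. Of 17 cytokine and reactive glia genes, 4 reached the level for testing, and Il1b, Tnf, Il6 and Ccl2 were among the 13 that did not.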
